A study of Mus musculus with 2 samples.

Results

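The clustered histone genes were taken as every gene in the deposited matrices whose symbol starts with Hist1h, Hist2h, Hist3h or Hist4h, which gave 69 of 27998 genes under 68 symbols, Hist2h2bb being listed for 2 gene identifiers. The data are single-cell RNA counts from lungs of mice at postnatal day 10, with 1 control library and 1 mutant library, each made from sorted epithelial, immune, endothelial and mesenchymal cells. The mutant is labelled Nkx2-1;Aqp5 and the control Nkx2-1, so both names carry Nkx2-1, the homeobox gene whose role in alveolar type 1 cells the series addresses. The labels give no alleles, no driver of a recombinase and no number of animals. With 1 library for each genotype no difference between them could be tested, and every interval given is a 95% interval that covers counting error only.

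Clustered histone genes encode the core histones H2A, H2B, H3 and H4, around which DNA is wound, and the linker histone H1, which binds the DNA between nucleosomes. Most of them are transcribed during S phase, when new chromatin is built, and their messages end in a stem-loop instead of a poly(A) tail. The kit used here captures messages through poly(A), so it sees such messages only in part, and some members are known to be made also as polyadenylated messages in cells that do not divide.

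The stem-loop was looked for in the GENCODE M21 gene models (GRCm38) as 16 bases with an arm that opens on a pair of G, 6 paired positions (a G may pair with a T) and a loop of 4 bases that opens with T, beginning in the 100 bases after the stop codon. It was found in 44 of the 65 members with a coding model and in 113 of all 21562 coding genes measured (0.524%). In the members it began 21 to 58 bases after the stop codon, with a median of 31.5. Of the 23 members with a model and no match, 15 had a model that ended fewer than 16 bases after the stop codon, 2 had no coding model and 6 had room for one. The most frequent form was shared by 24 members, among them Hist1h1e, Hist1h1c, Hist3h2a, Hist1h2ap and Hist1h2ae. The forms are shown because members with the same stem-loop letters differed in how their counts moved with the cycling status of the cell. Capitals mark the 2 arms of the stem.
Hist1h1e: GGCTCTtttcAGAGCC
Hist3h2a: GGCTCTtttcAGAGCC
Hist1h2ap: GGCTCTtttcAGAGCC
Hist2h2ac: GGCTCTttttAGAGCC
Hist1h3c: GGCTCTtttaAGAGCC
Hist1h4d: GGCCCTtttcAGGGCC
Hist1h4i: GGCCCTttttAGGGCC
Hist1h4j: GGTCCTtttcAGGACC
The 7 members with the form printed for Hist1h4d were all H4 genes, as were the 2 with the form of Hist1h4i and the 2 with that of Hist1h4j.

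Gene models with the same stem-loop ended at very different distances from it. The model of Hist1h2ap, an H2A gene at chr13:21833026-21833507 on the minus strand, ended 3 bases past the stem-loop. That of Hist1h1e, an H1 gene at chr13:23620629-23622558 on the minus strand, ran on for 1153 bases, that of Hist3h2a, an H2A gene at chr11:58954685-58956830 on the plus strand, for 1643, and that of Hist1h1d, an H1 gene, for 4884. In all, 22 models ended within 100 bases of the stem-loop and 22 ran further. The poly(A) signal AATAAA lay in the last 50 bases of 15 of 67 member models against 62.3% of all genes, and 12 members held both features. A gene was counted where any of its transcripts held the signal. The number of transcripts and the length after the stop codon were not matched between members and all genes.

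**Figure D1:**
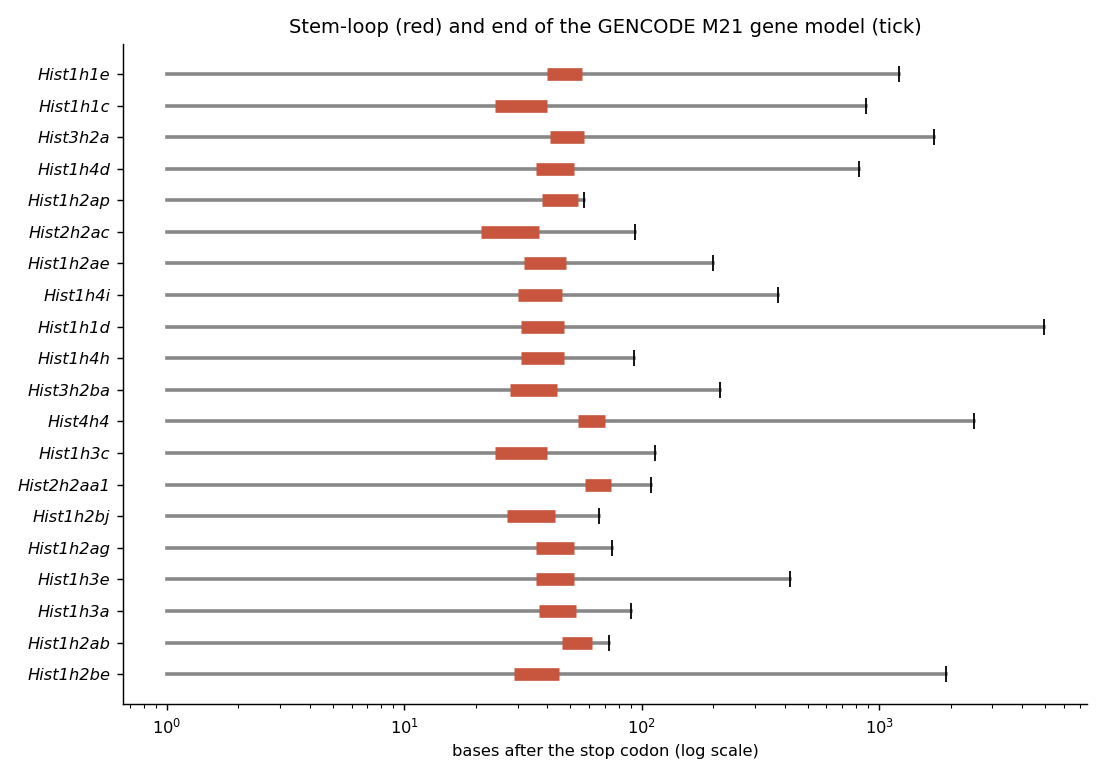
Gene models of the 20 stem-loop members with the most UMIs: grey lines run from the stop codon to the model's end (tick), red bars are the 16 bases of the stem-loop, and the axis is in bases on a log scale. The stem-loops sit between 21 and 58 bases from the stop codon, while the model ends lie from 3 to 4884 bases past them.

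Promoters were matched in RefSeq (GRCm38.p6) for 62 members. Over the 250 bases before and 50 after the start, the motif CCAAT, which NF-Y binds, was present on either strand in 85.5% of them against 37.4% of all 32851 promoters. The core promoter motif TATAAA was present in 56.5% against 13.6%. GGTCC, a core of the element of H4 promoters, was present in 43.5% against 45.5%. GGTCC and CCAAT split by histone. Of H4 genes with a matched promoter, all but Hist1h4a held GGTCC, and only Hist1h4a, Hist1h4c and Hist1h4d held CCAAT. All matched members of the other histones held CCAAT, and some held GGTCC. No motif contains another. The 150 bases before the start are shown for members that led the results below, with these 3 motifs, on either strand, in capitals. They are chr13:23622559-23622708 (minus strand) for Hist1h1e, chr13:21780626-21780775 (minus strand) for Hist1h1b, chr13:23581418-23581567 (plus strand) for Hist1h4d and chr11:58954535-58954684 (plus strand) for Hist3h2a.
Hist1h1e: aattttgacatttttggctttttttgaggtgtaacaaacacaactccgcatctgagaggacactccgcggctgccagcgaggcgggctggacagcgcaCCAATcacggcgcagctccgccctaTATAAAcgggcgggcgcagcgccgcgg
Hist1h1b: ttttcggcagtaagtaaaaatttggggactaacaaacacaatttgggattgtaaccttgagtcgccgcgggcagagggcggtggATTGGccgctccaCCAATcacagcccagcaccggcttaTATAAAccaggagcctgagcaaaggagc
Hist1h4d: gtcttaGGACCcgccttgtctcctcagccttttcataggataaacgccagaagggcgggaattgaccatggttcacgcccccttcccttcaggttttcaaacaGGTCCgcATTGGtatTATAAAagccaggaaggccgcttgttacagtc
Hist3h2a: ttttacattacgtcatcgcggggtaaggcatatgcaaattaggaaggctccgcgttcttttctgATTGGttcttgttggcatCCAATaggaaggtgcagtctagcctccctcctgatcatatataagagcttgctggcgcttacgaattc
CCAAT was present upstream of Hist3h2a, which was not 2-fold higher in Mki67+Top2a cells of any lineage, as well as of Hist1h1e and Hist1h1b, which were in every lineage assessed.

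There were 29862980 UMIs (unique molecular identifiers, 1 per captured message) over 4461 control barcodes, the median barcode having 5943. Over 4551 mutant barcodes there were 47271104, the median barcode having 8305, and 27 barcode sequences occurred in both. After filters 3919 control and 4148 mutant cells of 4 lineages were used. Nkx2-1 itself was at 370 CPM (UMIs per 1000000 UMIs of all genes, 360 to 380) in control and 30.8 (28.9 to 32.7) in mutant epithelial cells. Which part of the gene is altered, if any, is not given, nor whether its 3' tags lie there. Cells were sorted by lineage and their shares are therefore set in part by the sort. The cycling class held cells where Mki67, a proliferation antigen, and Top2a, the topoisomerase of dividing cells, together had 3 or more UMIs. These are called Mki67+Top2a cells here. The comparison class held cells where they had 0, and cells with 1 or 2 were left out. Mki67+Top2a cells were 3.01% of control and 12.7% of mutant cells. They numbered 22 and 389 in the epithelium, 36 and 83 in the endothelium, 42 and 42 in the mesenchyme and 18 and 12 among immune cells, control first. They were also deeper than cells with none, with medians of 8978 against 6002 UMIs (control) and 13799.5 against 7496 (mutant); the part of depth in the results was not tested other than through the settings in the closing section.

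Members together had 46449 UMIs in the cells used. No UMI was seen for 4 members, 1 to 19 for 14 and 20 or more for 51, of which 30 had 100 or more. The 3 highest, Hist1h2bc (13507 UMIs over both libraries), Hist1h1e and Hist1h1c, held 58.8% of member UMIs and the 20 highest 94.1%. By histone, the 6 H1 genes gave 39.2%, the 19 H2B genes 32.6%, the 19 H2A genes 17.1%, the 13 H4 genes 8.43% and the 12 H3 genes 2.70%. These are shares of captured molecules and not of histone protein or of all histone RNA.

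Members ranged from genes nearly absent from cells without Mki67 or Top2a, such as Hist1h2ap, to genes at a similar or lower level in Mki67+Top2a cells, such as Hist3h2a, with others such as Hist1h1c between them. Summed over the 69 members and compared within lineages (Mantel-Haenszel ratio), Mki67+Top2a cells were higher by 5.08-fold (4.77 to 5.42) in the control and 4.10-fold (4.02 to 4.19) in the mutant. Without the 3 highest members the ratios were 8.32 (7.70 to 8.99) and 8.36 (8.07 to 8.67). In the control the summed level went from 196 to 740 CPM in the epithelium, 359 to 1902 in the endothelium, 158 to 877 in the mesenchyme and 235 to 1391 in immune cells. In the mutant it went from 594 to 2146, 527 to 4049, 345 to 3238 and 288 to 3010 CPM. All 4 lineages of both libraries thus had higher summed levels in Mki67+Top2a cells.

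A member was counted as replication-linked where it was at least 2-fold higher in Mki67+Top2a cells in every lineage and library with 20 or more of its UMIs, with at least 1 such lineage in each library. The term is only a label for this rule, since Mki67 and Top2a mark cycling cells and not S phase. The rule held for 38 of 38 assessed genes of a G2 and M phase list and 24 of 32 of an S phase list. With status taken from the S phase list, 2 of 14 members met it. Of the 15 members that could be assessed in both libraries, 7 met the rule: Hist1h1e, Hist1h1b, Hist1h4d, Hist1h2ap, Hist1h2ae, Hist1h4i and Hist2h2be. The same rule held for 344 of 12836 genes assessed (2.68%). The 7 comprised 2 of 3 H1 genes assessed, 2 of 4 H2A, 1 of 3 H2B and 2 of 4 H4; the 1 H3 gene assessed was not among them. The rule rests on few members: the count was 4 of 9 with a minimum of 50 UMIs, 25 of 60 with no minimum 2 of 6 when every cell was thinned to 2000 UMIs and 0 of 13 with cell type clusters in place of lineages.

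Among the 51 members with 20 or more UMIs, a set chosen by level, the ratio was above 1 in 47 in the control and 49 in the mutant, against 6723 and 6167 of 15117 genes with as many UMIs. Their median log2 ratio was 3.64 in the control and 3.03 in the mutant, against -0.02 and -0.09 over those genes. Of the 51, Hist3h2a and Hist2h3c2 were below 1 in both libraries.

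Among members with 100 or more UMIs, Hist1h2ap had the highest ratio in the control. In cells with none it was at 0.929 CPM in control and 1.25 in mutant epithelium, 3.33 and 2.52 in endothelium, 0.166 and 0.410 in mesenchyme and 7.73 and 3.57 in immune cells. In Mki67+Top2a cells it was at 183 and 75.5 CPM in epithelium, 531 and 143 in endothelium, 349 and 102 in mesenchyme and 277 and 72.1 in immune cells, control first. No interval of the one class reached that of the other, and the control was above the mutant in Mki67+Top2a cells of all 4 lineages. The ratio of the classes was 158 (109 to 227) in the control and 61.0 (43.6 to 85.4) in the mutant. Its sequence is shared with near-identical H2A genes: 8.4% of the 124-base windows of its model were unique to it, 124 being the length of the longer read, so its counts depend on how shared reads were treated.

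Hist1h1b, the H1.5 linker histone gene, was also far higher in Mki67+Top2a cells. It was at 0.143 CPM in control epithelial cells with none, 0.829 in mesenchyme and 1.41 in immune cells, and had 0 UMIs in control endothelium. In control Mki67+Top2a cells it was at 25.3, 51.2, 50.9 and 146 CPM in the same order. In the mutant it went from 4.88 to 313 CPM in epithelium, 6.06 to 623 in endothelium, 2.87 to 815 in mesenchyme and 5.96 to 631 in immune cells. The ratio was 114 (54.3 to 240) and 74.8 (63.1 to 88.8). All its 124-base windows were unique, and its model ended at the stop codon.

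Hist1h2ae, another H2A gene, and the H4 genes Hist1h4d and Hist1h4i completed the clear cases. Hist1h2ae was 106-fold (50.9 to 220) and 38.8-fold (30.4 to 49.4) higher in Mki67+Top2a cells of control and mutant. Hist1h4d was 10.3-fold (6.44 to 16.4) and 8.47-fold (7.55 to 9.51) higher. Hist1h4i was 7.95-fold (5.80 to 10.9) and 7.90-fold (6.66 to 9.37) higher and was assessed in all 8 pairs of lineage and library. Hist1h4i thus kept a measurable level in cells with none, from 2.98 to 21.8 CPM in the control, the immune cells being highest. Hist2h2be, an H2B gene known to be made as a polyadenylated message, passed in both of the 2 pairs that could be assessed, with 2.79-fold (1.47 to 5.28) and 2.60-fold (1.72 to 3.94).

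The other 36 members with 20 or more UMIs could not be assessed in both libraries, and their ratios ranged widely. Hist2h3c2, an H3 gene, had no UMI in control Mki67+Top2a cells and a ratio of 0.354 (0.151 to 0.829) in the mutant, and Hist2h4, an H4 gene, had 2.75 and 3.61. Hist1h3c, the H3 gene with the most UMIs, was 85.2-fold (30.1 to 241) and 57.1-fold (35.9 to 90.9) higher. Hist1h2an, an H2A gene, had 6 UMIs or fewer in each class outside mutant epithelium and endothelium, where 2 and 0 UMIs in cells with none stood against 168 and 26 in Mki67+Top2a cells. Hist1h1a, the H1.1 gene, was 12.5-fold (3.25 to 47.8) higher in the control, on 11 UMIs, and 60.4-fold (40.0 to 91.2) in the mutant. Hist1h2bj, an H2B gene, was 29.4-fold (13.9 to 62.4) and 17.1-fold (11.1 to 26.5) higher.

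In 3 of the 15 assessed members no pair was 2-fold higher. Hist3h2a, the H2A gene of the chromosome 11 cluster, was at 42.6 CPM in control epithelial cells with none and 37.9 in Mki67+Top2a cells, 104 and 105 in endothelium, 49.2 and 37.8 in mesenchyme and 47.8 and 17.0 in immune cells. In the mutant the pairs were 56.2 and 41.6, 61.1 and 95.3, 42.9 and 17.4, and 29.8 and 27 CPM. Its ratio was 0.832 (0.638 to 1.09) in the control and 0.790 (0.705 to 0.886) in the mutant, and it was 2-fold higher in 0 of 8 pairs. Hist4h4, the only member of the chromosome 6 cluster and an H4 gene, had 0.689 (0.279 to 1.70) and 1.5 (1.06 to 2.11). Hist2h3c1, an H3 gene, had 1.17 (0.276 to 4.98) and 1.06 (0.575 to 1.96), and none of its 124-base windows was unique to it.

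Hist1h2bc, an H2B gene at chr13:23684199-23692908 on the plus strand whose model has a second exon far downstream, had the most UMIs of any member. It was at 82.9 CPM in control epithelial cells with none and 114 in Mki67+Top2a cells, 124 and 118 in endothelium, 53.2 and 57.9 in mesenchyme and 33 and 102 in immune cells. In the mutant the pairs were 244 and 397, 91.9 and 371, 95.8 and 125, and 45.3 and 81.1 CPM. It was 2-fold higher in Mki67+Top2a cells in 2 of 8 pairs, control immune cells and mutant endothelium. The ratio over lineages was 1.26 (1.03 to 1.53) in the control and 1.69 (1.62 to 1.77) in the mutant.

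Hist1h1c, the H1.2 linker histone gene, lay between the groups. It was higher by 2.06-fold (1.63 to 2.61) in the control and 2.14-fold (2.02 to 2.27) in the mutant and passed 2-fold in 7 of 8 pairs, control endothelium being the exception at 1.37 (0.787 to 2.25). Hist3h2ba, an H2B gene beside Hist3h2a, passed in 2 of 4 pairs, Hist1h4h, an H4 gene, in 4 of 5 and Hist2h2aa1, an H2A gene, in 3 of 4.

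**Figure D2:**
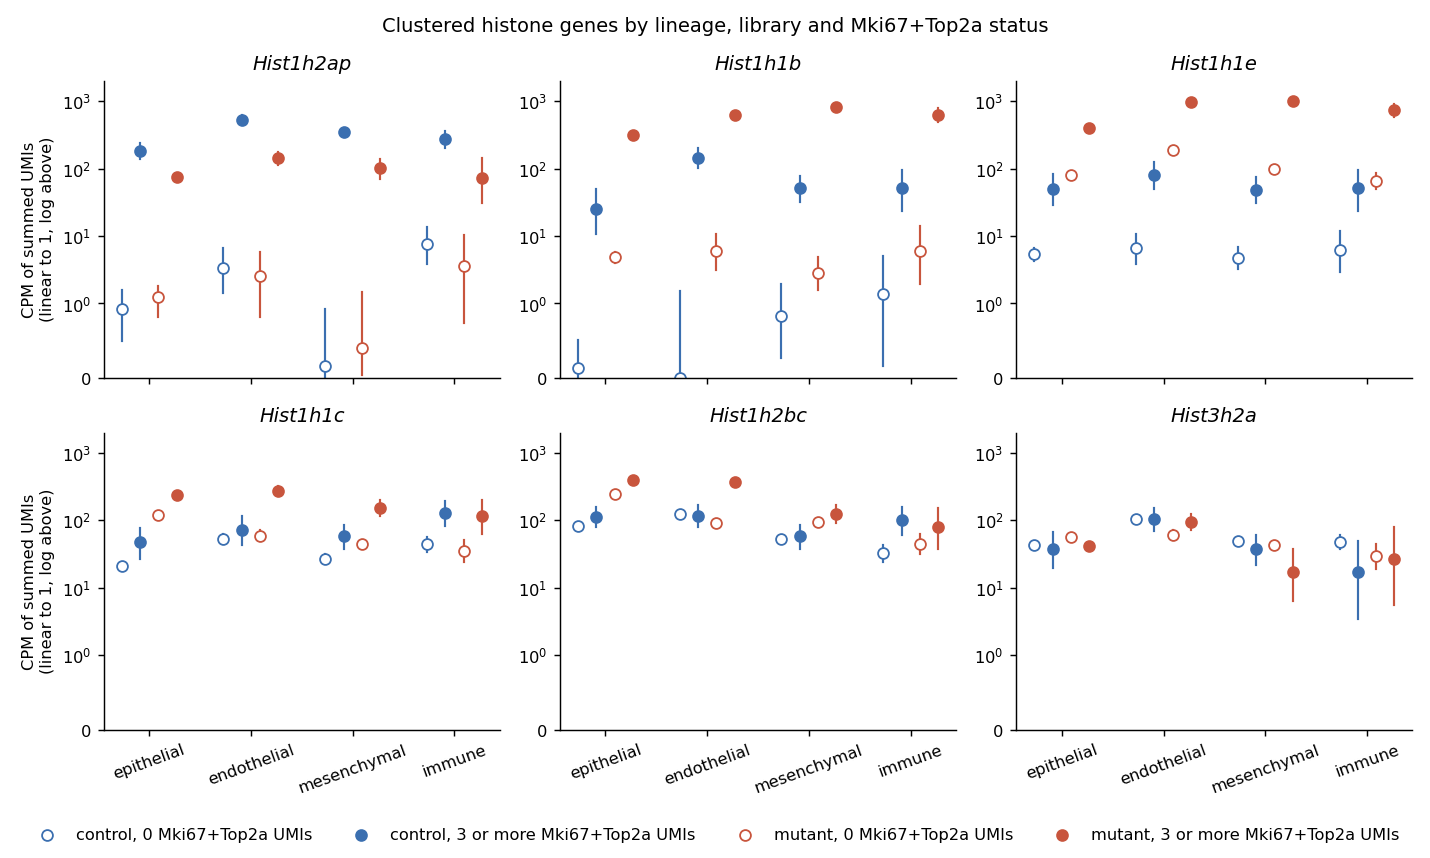
CPM of summed UMIs (linear to 1, log above) of 6 members in 4 lineages, for control (blue) and mutant (red) cells with 0 (open) or 3 or more (filled) Mki67+Top2a UMIs; bars are 95% Poisson intervals. Hist1h2ap and Hist1h1b separate open from filled points in every lineage, Hist1h1e also separates blue from red, and Hist3h2a separates neither in a fixed direction.

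Members whose model ended within 100 bases of the stem-loop had a median ratio of Mki67+Top2a cells to cells with none of 25.9 in the control and 21.5 in the mutant (17 members with 20 or more UMIs). For the 21 whose model ran further the medians were 5.85 and 3.88. This is a description over gene models, and the 2 sets overlapped: Hist1h2ae, whose model ran on for 151 bases, was at 106 in the control.

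The level of the members was also followed over the Mki67+Top2a count of the cell. Summed over members, the control was at 205 CPM in cells with 0 UMIs, 267 at 1, 804 at 2, 760 at 3 to 5, 1086 at 6 to 10 and 1311 at 11 or more. The mutant was at 539, 837, 894, 1441, 1740 and 2867 CPM. Hist1h2ap went from 1.38 to 382 CPM in the control and from 1.27 to 121 in the mutant between the lowest and highest class. Hist1h1e went from 5.41 to 75.0 and from 90.5 to 675.

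Hist1h2bc did not follow that order. In the mutant it was at 203 CPM in cells with 0 UMIs, 650 at 3 to 5 and 225 at 11 or more. In the control it was at 76.6 CPM at 0, 373 at 2 (26 cells) and 73.4 at 11 or more. Hist1h1c had its highest mutant level at 6 to 10 UMIs, 298 CPM, against 205 at 11 or more. The number of Mki67 and Top2a UMIs in a cell rises with its depth as well as with its stage of the cycle.

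**Figure D3:**
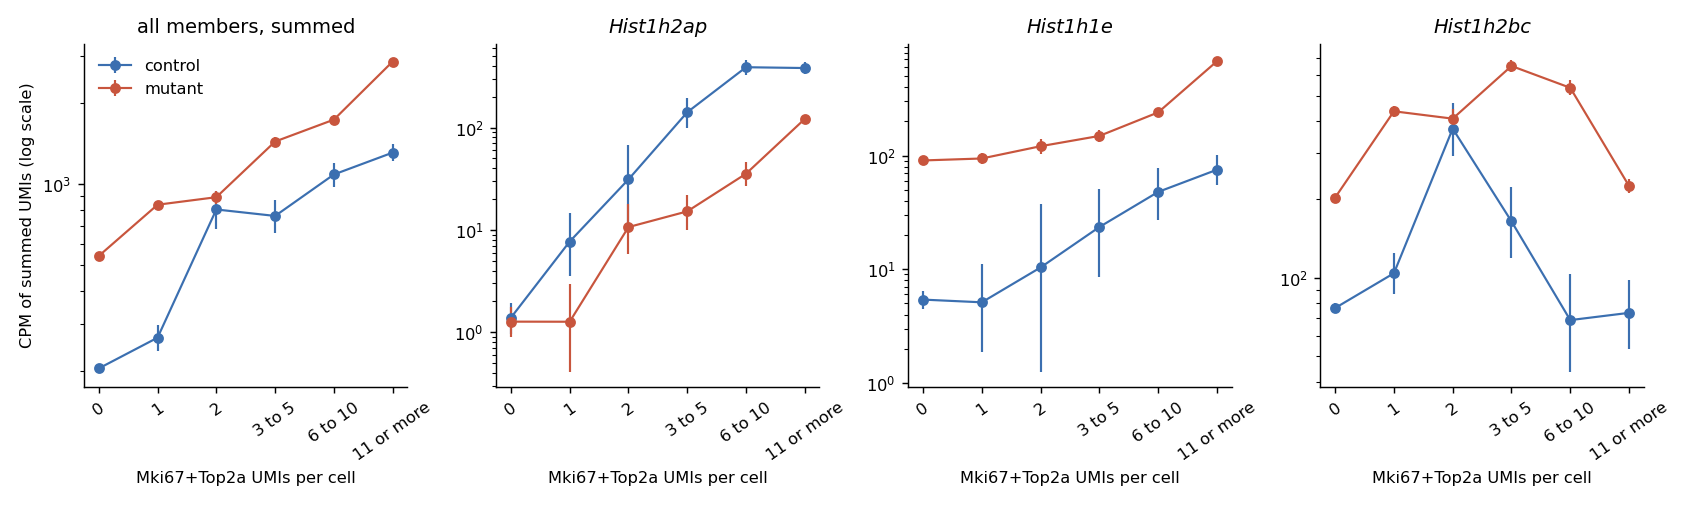
CPM of summed UMIs (log scale) by the number of Mki67+Top2a UMIs in the cell for all members, Hist1h2ap, Hist1h1e and Hist1h2bc in the control (blue) and mutant (red); bars are 95% Poisson intervals. Hist1h2bc in the mutant is highest at 3 to 5 UMIs, 650 CPM, and is back at 225 at 11 or more.

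Among Mki67+Top2a cells, those with more G2M list than S list UMIs had the higher member levels. The lists held 34 S phase and 39 G2 and M phase genes and no histone. Summed members were at 895 CPM in 31 S-leaning and 1209 in 87 G2M-leaning control cells, and at 1589 CPM in 169 and 2724 in 356 such mutant cells. The ratio within lineages was 0.713 (0.623 to 0.817) in the control and 0.603 (0.583 to 0.623) in the mutant. Mki67 and Top2a, which chose the cells, had 0.613 and 0.442, so the cells on the S side also had fewer of these UMIs. Median depth was 8495 UMIs on the S side and 9076 on the G2M side in the control, and 15125 and 13005.5 in the mutant. The control ratio was 1.25 (0.811 to 1.93) when cells were thinned to 2000 UMIs. Of control cells 27 and of mutant cells 85 had an S share of 0.4 to 0.6, close to the dividing value of 0.5.

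Of single members, Hist1h2ap had S over G2M ratios of 0.803 (0.637 to 1.01) and 0.837 (0.710 to 0.987), and Hist1h2bc of 0.327 (0.172 to 0.618) and 0.532 (0.489 to 0.578). In cells with no Mki67 or Top2a UMI, 10 or more S list UMIs went with 480 CPM of members in the mutant (306 cells) against 497 with 0 (349 cells), and with 89.8 against 209 in the control (84 and 747 cells). Hist1h1b differed from the sum: with 10 or more against 0 S list UMIs it was at 7.52 (5.21 to 10.5) against 1.85 (0.505 to 4.75) CPM in the mutant, and at 3.74 (0.771 to 10.9) against 0.503 (0.0610 to 1.82) in the control, on 3 and 2 UMIs.

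Between libraries, the summed members were higher in the mutant in both classes of cells. Summed, the ratio of mutant to control was 2.57 (2.49 to 2.66) in cells with none and 2.67 (2.51 to 2.84) in Mki67+Top2a cells. Without the 3 highest members it was 1.52 (1.44 to 1.60) and 1.95 (1.82 to 2.09). In cells with none the ratio of this smaller sum was 1.72 (1.61 to 1.84) in epithelium and 1.44 (1.27 to 1.64) in mesenchyme. It was 1.06 (0.922 to 1.23) in endothelium and 0.934 (0.740 to 1.17) in immune cells. Over the 51 members with 20 or more UMIs the median log2 ratio was 1.01 in cells with none and 0.77 in Mki67+Top2a cells, against 0.23 and 0.12 over 15117 genes. In cells with none 40 of the 51 were above 1, as were 10002 of the 15117 genes. Cells with none were not matched between libraries for RNA of cycle genes. Their median log2 ratio of mutant to control was 0.94 for the S list and 0.93 for the G2M list. In Mki67+Top2a cells these medians were 0.04 and -0.08. The part of this in the member ratios was not tested. Library, genotype and animal cannot be told apart here.

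The difference was uneven among the histones. H1 genes were 6.26-fold (5.80 to 6.76) higher in the mutant in cells with none and 8.19-fold (7.16 to 9.36) in Mki67+Top2a cells. H2A genes had ratios of 1.28 (1.19 to 1.37) and 0.957 (0.864 to 1.06). H2B genes had 2.33 (2.21 to 2.45) and 2.12 (1.82 to 2.47). H3 genes had 1.94 (1.55 to 2.44) and 1.69 (1.31 to 2.17), and H4 genes 1.65 (1.49 to 1.83) and 2.35 (1.96 to 2.82). Lineages also differed in cells with none. H2B genes had 2.80 in epithelium, 1.77 in mesenchyme, 0.756 (0.635 to 0.899) in endothelium and 1.09 (0.746 to 1.57) in immune cells. H2A genes had 1.53 in epithelium, 1.13 in mesenchyme, 0.761 (0.625 to 0.925) in endothelium and 0.744 (0.507 to 1.08) in immune cells.

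A member was counted as library-wide where it was at least 1.5-fold higher, or lower, in the mutant in all 4 lineages, each with 20 or more of its UMIs over both libraries. A member could therefore be assessed through the library where it was high. In cells with none, 1 of 5 members assessed was higher in the mutant, Hist1h1e, and 0 were lower. Hist1h1e had 129 UMIs in control and 2647 in mutant cells with none, so most of its UMIs came from the mutant. The rule held for 250 of 6609 genes in the higher direction (3.78%) and for 34 in the lower (0.514%). In Mki67+Top2a cells, a count added after the data were seen, 4 of 8 were higher, Hist1h1e, Hist1h1b, Hist1h2ae and Hist1h1d, against 2.3% of 1694 genes, and 1 was lower, Hist1h2ap, against 1.24%. Hist1h1d had 18 UMIs in all control cells used, so it reached the minimum only through the mutant. No conclusion is drawn from these counts. Hist1h1e was the one member that met both the replication rule and the library rule in cells with none. Centring on the median of all genes left the count in cells with none at 1.

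Hist1h1e, the H1.4 linker histone gene, was at 5.36 CPM in control and 80.4 in mutant epithelial cells with none, 6.66 and 189 in endothelium, 4.81 and 99.7 in mesenchyme and 6.32 and 65.5 in immune cells. In Mki67+Top2a cells it was at 50.6 and 406, 81.1 and 962, 49.0 and 1007, and 50.9 and 739 CPM. Mutant cells with none were therefore above control Mki67+Top2a cells in all 4 lineages by level. In epithelium and immune cells the control level rests on 22 and 18 cells, and the counting intervals overlap there. The mutant was 17.3-fold (14.5 to 20.6) higher in cells with none and 12.7-fold (9.92 to 16.2) in Mki67+Top2a cells. The lineages ranged from 10.4 (5.08 to 23.8) in immune cells to 28.3 (17.2 to 50.1) in endothelium in cells with none. Within each library Mki67+Top2a cells were above cells with none, by 10.1-fold (7.37 to 13.9) in the control and 5.42-fold (5.15 to 5.70) in the mutant.

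The share of cells with a Hist1h1e UMI told the same after thinning to 2000 UMIs a cell. In cells with none it was 1.30% in control and 14.6% in mutant epithelium, 1.17% and 28.1% in endothelium, 0.718% and 18.3% in mesenchyme and 1.43% and 12% in immune cells. Before thinning the same shares were 3.83% and 48.0%, 3.11% and 57.3%, 2.97% and 39.0%, and 2.87% and 27.5%. Ciliated-like cells, which do not divide, had 0 of 84 in the control, where the interval reached 4.30%, and 8.82% (1.86 to 23.7) of 34 in the mutant. Free RNA in the droplets was not measured, and its part in the mutant level of ciliated-like and other cells was not tested.

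The gene model of Hist1h1e lies across that of Hist1h2be, an H2B gene on the same strand, and 0% of the windows in its last 300 bases were unique to it, against 78.1% of all its windows. Reads there could not be told apart between both genes. Hist1h2be had 28 control and 114 mutant UMIs. The densest stretch of A in Hist1h1e held 12 in 20 bases, in the coding sequence. A threshold of 14 or more was chosen after the data were seen. Such a stretch was present in 92.0% of the 250 genes higher in the mutant and 32.4% of the 34 lower. It was present in 65.9% of the genes assessed, 51.8% of all genes and 13.4% of members. The search covered the whole length of every transcript of a gene, and length was not matched between these sets. The part of such stretches in the ratios was not tested.

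Other members high in the mutant were found among replication-linked and other genes alike. Hist1h1b was 14-fold (6.72 to 29.3) higher in cells with none and 8.74-fold (6.92 to 11.1) in Mki67+Top2a cells. Hist1h1d, the H1.3 gene, had 4 UMIs in control and 185 in mutant cells with none, and was 5.90-fold (3.40 to 10.2) higher in Mki67+Top2a cells. Hist1h4d was 6.71-fold (5.03 to 8.96) and 6.04-fold (4.21 to 8.66) higher and Hist2h2ac, an H2A gene, 7.35-fold (4.94 to 10.9) and 10.9-fold (5.51 to 21.6). Hist1h1a was 18.2-fold (7.47 to 44.2) higher in Mki67+Top2a cells. The 6th H1 gene, the germ-cell gene Hist1h1t, had 0 UMIs, and the other 5 H1 genes were all higher in the mutant in both classes of cells.

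Hist1h1c was 3.70-fold (3.38 to 4.05) higher in cells with none, and its lineages differed. It was at 20.9 CPM in control and 120 in mutant epithelium, 53.3 and 59.6 in endothelium, 27.2 and 44.9 in mesenchyme and 44.3 and 35.7 in immune cells. The ratio was 5.77 (5.11 to 6.53) in epithelium and 0.807 (0.504 to 1.27) in immune cells.

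Hist1h2ap went the other way in Mki67+Top2a cells. Its ratio of mutant to control was 0.309 (0.260 to 0.366), and 0.412 (0.314 to 0.549) in epithelium, 0.269 (0.202 to 0.358) in endothelium, 0.291 (0.195 to 0.421) in mesenchyme and 0.260 (0.106 to 0.554) in immune cells. After thinning, 27.3% of control and 12.9% of mutant epithelial Mki67+Top2a cells had a UMI, 52.8% and 25.3% in endothelium, 35.7% and 16.7% in mesenchyme and 38.9% and 8.33% in immune cells. In cells with none its ratio was 1.02 (0.622 to 1.68). Hist2h2be was also lower in the mutant, with 0.505 (0.364 to 0.701) in cells with none and 0.414 (0.175 to 0.980) in Mki67+Top2a cells. Hist1h4i had 1.56 (1.22 to 1.99) and 1.25 (0.923 to 1.70), and Hist3h2a 1.07 (0.986 to 1.15) and 0.897 (0.646 to 1.24).

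**Figure D4:**
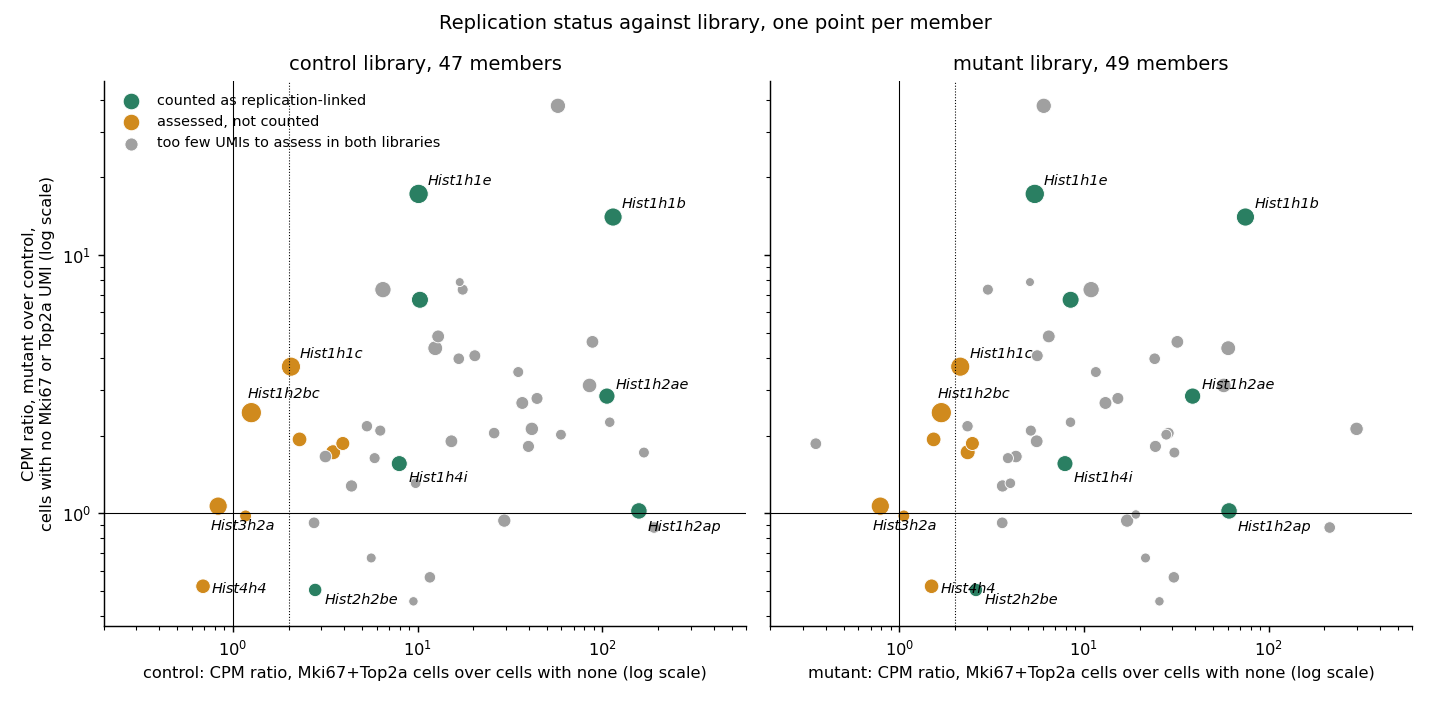
Each point is a member with 20 or more UMIs; the x axis is the ratio of Mki67+Top2a cells to cells with none in the control (left, 47 members) or mutant (right, 49), the y axis the ratio of mutant to control in cells with none, both log scales, and a larger point has more UMIs. Hist1h1e and Hist1h1b are at the upper right, Hist1h2ap is far right at 1.02, and Hist3h2a is near 1 on both axes.

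Cell types were rebuilt from clusters and named from markers, so they may differ from the authors' own. Among cells with none, ciliated-like cells had the highest summed level of the types found in the control, 694 CPM (84 cells), and were at 850 in the mutant (34 cells). Hist1h2bc gave 412 and 420 CPM of these. AT1-like cells were at 248 CPM in the control (576 cells) and 394 in the mutant (166), AT2-like cells at 152 (1157) and 414 (170) and club-like cells at 68.2 (34) and 232 (23). Alveolar fibroblast-like cells were at 273 and 537 CPM and pericyte-like cells at 148 and 194. Venous-like cells were at 391 and 326 CPM, the pair of types compared here in which the mutant was not above the control.

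Hist1h1e was at 0 to 14.5 CPM in the control types and 29.3 to 219 in the mutant types, alveolar macrophage-like cells being highest in the control and lowest in the mutant. Hist1h2bc was at 125 and 147 CPM in AT1-like, 46.8 and 70.1 in AT2-like and 135 and 243 in alveolar fibroblast-like cells. In venous-like cells it was at 196 and 45.8 CPM and in the unnamed endothelial cells at 145 and 91.7, control first.

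**Figure D5:**
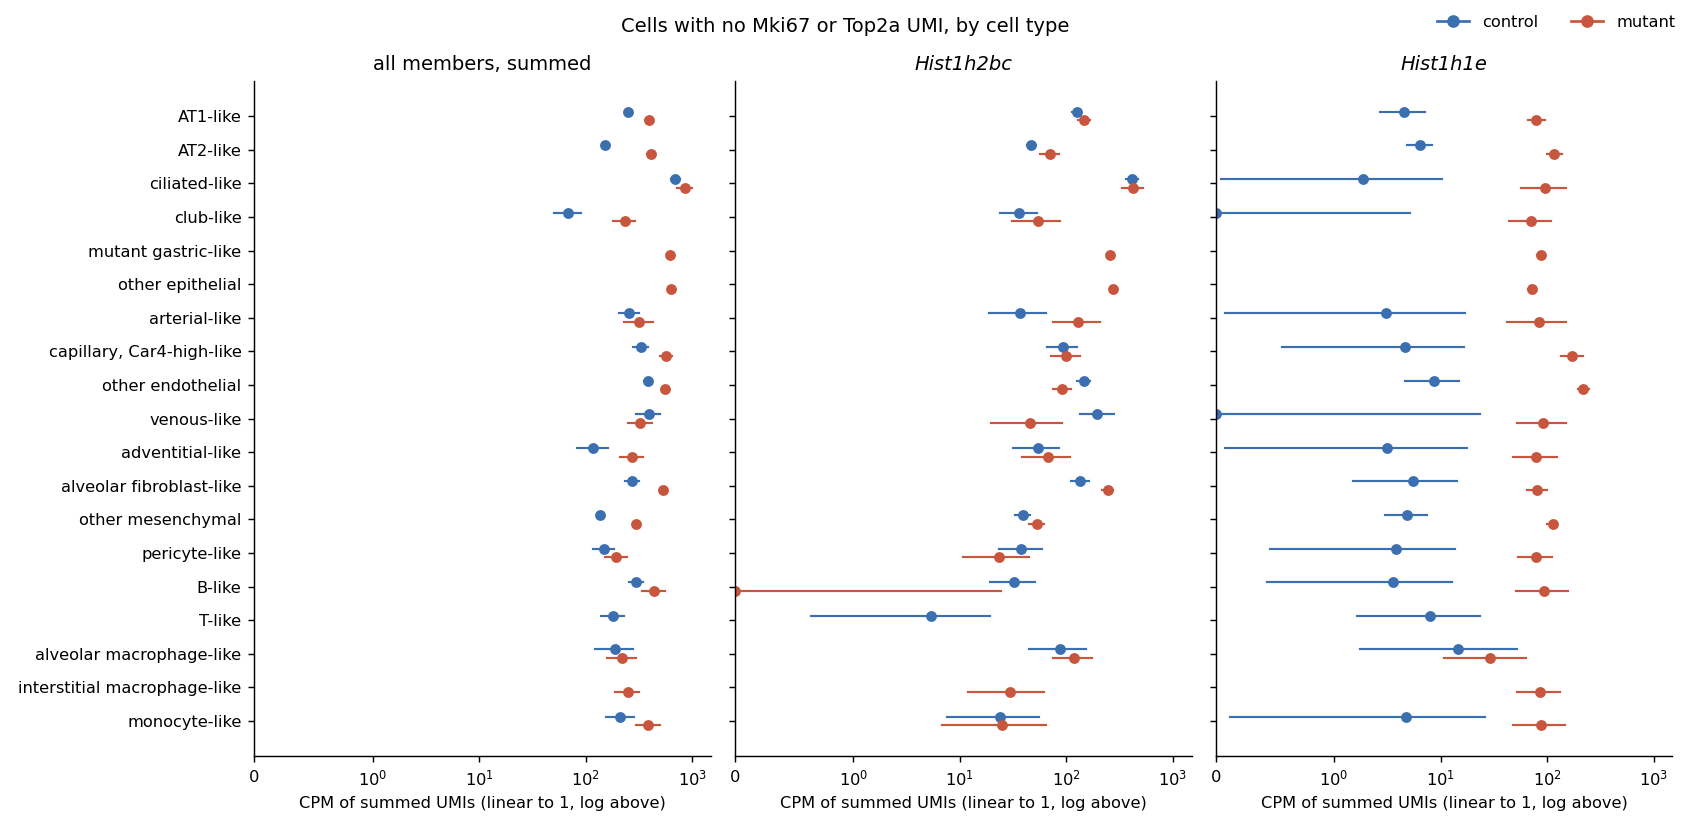
CPM of summed UMIs (linear to 1, log above) in cells with no Mki67 or Top2a UMI by cell type, for all members, Hist1h2bc and Hist1h1e in the control (blue) and mutant (red), with 95% Poisson intervals; a type with fewer than 20 such cells in a library has no point. Ciliated-like cells lead for Hist1h2bc, at 412 and 420 CPM, and Hist1h1e is 29.3 to 219 in the mutant types.

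Most mutant epithelial cells lay in clusters with no control cells or few. Clustering did not use the members, yet 2 unnamed mutant clusters had members among their leading genes, which describes them and tests nothing. The first (314 cells, led by Hist1h1b, Esco2 and Top2a) had 2131 CPM of members. The second (291 cells, led by Gpx2, Hist1h2bc, Ccnb2 and Hist1h1c, with Hist3h2ba and Cdc20 among the first 10) had 1442 CPM, of which Hist1h2bc gave 798. In its 203 cells with none the members were at 1051 CPM and Hist1h2bc at 532, against 255 in the mutant gastric-like cells, which were led by Apoa1, Agr2 and Tff1.

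Genes that serve histones were read from lists with the same rules. Of 19 genes for transcription and processing of histone mRNA, 17 could be assessed and 3 were replication-linked, Ccne1, Ccne2 and E2f1, against 2.68% of all genes. Slbp, which binds the stem-loop, was 4.01-fold and 3.16-fold higher in Mki67+Top2a cells of control and mutant but did not pass in every lineage. Its ratio of mutant to control was 0.843 in cells with none and 0.678 in Mki67+Top2a cells. Npat, the coactivator of histone transcription, had 3.02 and 2.25. Casp8ap2, also known as Flash, which takes part in stem-loop processing, was the 1 gene of 13 assessed that was library-wide, with 2.01 and 3.18.

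Of 14 histone chaperones, all assessed, 5 were replication-linked: Nasp, Chaf1a, Chaf1b, Asf1b and Dek. Asf1b, which hands H3 and H4 to the replication fork, was 54.5-fold and 29.8-fold higher in Mki67+Top2a cells. Atrx, which deposits H3.3 at repeats, was the 1 of 11 that was library-wide, with 2.05 in cells with none and 2.27 in Mki67+Top2a cells.

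Of 11 replacement and other histones outside the clusters, all assessed, 5 met the same rule of a higher level in Mki67+Top2a cells. They were H2afz, H2afx, H2afv, H1fx and Cenpa, and Cenpa is also a gene of the G2M list. The rule does not show that they are made with replication. None of 9 such histones assessed was library-wide, in either direction. H2afx, the H2A.X gene, was 26.5-fold and 12.4-fold higher in Mki67+Top2a cells. H1f0, the linker histone gene of resting cells, was at 252 CPM in control and 264 in mutant cells with none, pooled over lineages, with a ratio of 1.10 within lineages. The clustered H1 genes, summed, had a ratio of 6.26 in cells with none. Why H1f0 differed from them was not tested. H3f3b had 1.21 and H3f3a 1.22. Of the S list 24 of 32 assessed genes and of the G2M list 38 of 38 met the rule called replication-linked, which does not tell S phase from G2 and M phase.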

How the data were processed

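Single-cell libraries were made with a 3' kit from sorted lung cells, and the deposited values are raw counts of UMIs per gene and barcode, in the matrices as the authors deposited them. Per the submitters' processing notes, Cell Ranger, Seurat and mm10 were used; versions are not given in those notes. From these counts, barcodes with at least 500 genes and at most 10% mitochondrial UMIs were kept. Doublets were marked at an expected share (3.67% of control and 3.89% of mutant barcodes), since the caller's own threshold marked 0.224% and 2.07%; that choice was made after seeing the data. Cells were clustered with scanpy 1.11.5 and leidenalg 0.10.2 (2000 variable genes, 30 components, 20 neighbours, resolution 1), without the members, the S and G2M lists, Mki67 or Top2a. Clusters were given a lineage and type from marker lists, and 70 control and 98 mutant cells of mixed clusters were left out; the naming thresholds were set after seeing the data.

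UMIs were summed per lineage, library and Mki67+Top2a class and divided by the summed UMIs of all genes (CPM). Ratios over lineages used Mantel-Haenszel weights with Greenland-Robins intervals, ratios within a lineage exact conditional binomial intervals, levels exact Poisson intervals and shares Clopper-Pearson intervals. Where the lower group had no UMI, the per-lineage rule used a floor of 3 counts. Replication-linked and library-wide genes were counted by fold alone, over all genes. Both counting rules were run on simulated Poisson counts. The genes changed there had far more UMIs than the minimum of 20, and changed by more than the fold thresholds. That run therefore does not cover members near the minimum or the thresholds. Named members were the 20 with the most UMIs, the 3 highest and 3 lowest ratios by status among members with 100 or more UMIs, and every library-wide member. Hist1h2an, Hist1h2be, Hist2h3c1, Hist2h3c2, Hist2h4, Hist1h1t, Hist1h4a, Hist1h4c and Hist1h4j were named after their values were seen. A count, an overlap or a sequence turned on each of them. The stem-loop and A-stretch searches were also chosen after the data were seen. The members, lists and rules were chosen with earlier results of these data known. In all, 18 planned and 1 added alternative settings were run with Python 3.11.15, numpy 2.4.6 and scipy 1.17.1.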

Additional observations from a re-analysis of the deposited data

Results flagged for a closer look

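In cells with no Mki67 or Top2a UMI, 3 members differed between libraries in opposite directions in 2 lineages, with intervals that did not include 1. There is 1 library for each genotype, so the differences between lineages were not tested.

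Hist1h2bc, the H2B gene with the most UMIs, had a ratio of mutant to control of 0.741 (0.613 to 0.894) in endothelium and 2.94 (2.76 to 3.14) in epithelium. Within the endothelium its level was 36.7 CPM in control and 129 in mutant arterial-like cells, 92.1 and 99.9 in Car4-high capillary-like cells, 145 and 91.7 in unnamed cells and 196 and 45.8 in venous-like cells. The types thus did not share the direction of the lineage.

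Hist3h2a, an H2A gene, had 0.585 (0.467 to 0.729) in endothelium and 1.32 (1.2 to 1.46) in epithelium. Hist4h4, the H4 gene of the chromosome 6 cluster, had 0.323 (0.242 to 0.427) in epithelium and 2.41 (1.33 to 4.51) in mesenchyme. The makeup of the epithelium differed between libraries, with 1157 control and 170 mutant AT2-like cells with no Mki67 or Top2a UMI, and its part in these values was not tested.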

How the results depend on the processing

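Under other settings 39 values stayed near the reported value, 43 moved and 1 reversed. The reversal was the S over G2M ratio of the summed members in the control, 1.25 with cells thinned to 2000 UMIs; thinning also gave 2 replication-linked members, a mutant ratio by status of 5.83, a mutant over control ratio of 3.15 in Mki67+Top2a cells and a mutant S over G2M ratio of 0.779. With 1 or more Mki67+Top2a UMIs the ratios by status were 3.27 and 3.13 (control, then mutant) and S over G2M 0.350 and 0.417; with 6 or more they were 5.49, 4.55, 0.834 and 0.738. With status taken from the S list, 2 members were replication-linked, 0 of 1 assessed was library-wide, the ratios by status were 1.30 and 1.83, and mutant over control was 3.67 in the high class. The mean over cells gave 4.78 by status in the mutant, 2.33 between libraries in cells with none and 0.573 for S over G2M in the mutant. A minimum of 50 UMIs left 4 replication-linked members; no minimum gave 25, and 9 library-wide. In all cells 5 were library-wide. Without the epithelium the ratios by status were 5.52 and 8.41 and mutant over control 1.76 in cells with none. Centring on all genes gave mutant over control of 2.12 and 2.46 in the classes. Cell type clusters in place of lineages left 0 of 13 members replication-linked, with 4.23 and 2.86 by status and 1.76 and 2.91 between libraries. Cells of 4000 to 10000 UMIs gave 7.07 by status in the mutant and 2.39 between libraries in cells with none. S shares of at least 0.67 against at most 0.33 gave 0.448 and 0.345. Without the 3 highest members, a setting added after the data were seen, the values were 8.32 and 8.36 by status, 1.52 and 1.95 between libraries and 0.667 for S over G2M in the mutant. The cause of these moves was not tested. Apart from that reversal, no ratio changed direction under the settings run. Control Mki67+Top2a cells, 118 in all, limit the precision of most single members. No paired analysis was possible because each genotype has 1 library.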
